A study of Mus musculus with 13 samples.

Results

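The circadian clock genes are the 10 genes Per1, Per2, Per3, Cry1, Cry2, Arntl, Clock, Nr1d1, Nr1d2 and Dbp. Their sites were taken as every peak that the deposited annotation tables assign to one of these genes and place within 100 kb of its transcription start. This choice used gene names and distances and no measured signal. It gave 217 of the 538751 peaks in 12 lists, for 10 of the 28467 genes named there. Peaks of the same antibody that shared at least 1 bp were merged over its 4 lists into regions, of which 68 belonged to clock genes.

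The data are chromatin immunoprecipitation sequencing of LβT2 cells, an established line of mouse pituitary gonadotropes, the cells that secrete the gonadotropins LH and FSH. The line carried a lentiviral cassette for FLAG-mFoxL2, with GFP always on and a tagged form of the forkhead factor FOXL2 that doxycycline induces, and every sample received doxycycline for 48 h. The labels also give every sample a recovery of 24 h, an equilibration of 2 h and 2% serum. The treatment was activin A at 1 nM or its vehicle, for 1 h. SMAD2/3, the FLAG tag (called FOXL2 here) and H3K27ac (histone H3 with an acetyl group on lysine 27, found at active regulatory DNA) were immunoprecipitated from 2 samples per treatment, and each sample was a pool of 3 plates of 1 transduced line. Both treatments therefore share the induced transgene, and the FOXL2 signal is that of the tagged protein and not of FOXL2 as the cells make it. The labels do not say whether the samples were separate cultures, so the spread between them may be technical.

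In the molecular clock, CLOCK and ARNTL (also called BMAL1) bind E-box sequences as a pair and switch on the Per and Cry genes, whose proteins return to the nucleus and block that pair. NR1D1 and NR1D2 (REV-ERBα and REV-ERBβ) are nuclear receptors that repress Arntl, and DBP is a transcription factor that binds D-box sequences and carries the rhythm to output genes. These genes cycle in many tissues, the pituitary included. SMAD2 and SMAD3 are the transcription factors that activin receptors phosphorylate, and FOXL2 is a known partner of SMAD proteins at gonadotrope genes.

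Promoter sequences were matched by symbol to RefSeq's GRCm38.p6 table, and 9 of the 10 genes had an entry, with 13 promoters in all. Windows of 300 bases, from 250 bases before a start to 50 after it, were searched on both strands for 7 short motifs. The 250 bases upstream of the start are shown for Cry1 and Nr1d1, the genes with a SMAD2/3 site, and for Per1 and Per3, where clock motifs were found. Capitals mark a match to the E-box CACGTG, to the CRE TGACGTCA, to the D-box TTATGTAA or to the forkhead motif TGTTTAC, written on the gene's own strand from 5′ to 3′.
Cry1, chr10:85185055-85185304, minus strand: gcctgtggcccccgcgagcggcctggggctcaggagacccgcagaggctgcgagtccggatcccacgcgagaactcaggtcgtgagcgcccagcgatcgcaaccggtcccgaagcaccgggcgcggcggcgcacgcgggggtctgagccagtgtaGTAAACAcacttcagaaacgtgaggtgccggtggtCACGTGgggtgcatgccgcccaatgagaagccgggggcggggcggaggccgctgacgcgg
Nr1d1, chr11:98775378-98775627, minus strand: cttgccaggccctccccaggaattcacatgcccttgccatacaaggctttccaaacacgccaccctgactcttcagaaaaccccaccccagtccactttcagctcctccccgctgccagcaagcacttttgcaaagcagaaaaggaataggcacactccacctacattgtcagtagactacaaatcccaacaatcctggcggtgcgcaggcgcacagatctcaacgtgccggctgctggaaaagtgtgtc
Per1, chr11:69098699-69098948, plus strand: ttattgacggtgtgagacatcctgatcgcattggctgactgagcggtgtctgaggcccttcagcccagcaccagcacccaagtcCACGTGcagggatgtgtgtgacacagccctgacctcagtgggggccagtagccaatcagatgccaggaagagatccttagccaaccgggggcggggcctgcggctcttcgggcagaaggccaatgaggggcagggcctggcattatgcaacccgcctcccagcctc
Per3, chr4:151044666-151044915, minus strand: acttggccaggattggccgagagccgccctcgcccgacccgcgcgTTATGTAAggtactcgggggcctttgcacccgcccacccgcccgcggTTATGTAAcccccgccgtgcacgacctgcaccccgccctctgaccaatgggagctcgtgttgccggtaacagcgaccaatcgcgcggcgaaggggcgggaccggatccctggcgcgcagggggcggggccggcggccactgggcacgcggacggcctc

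The E-box, the site of the CLOCK and ARNTL pair, occurred in the Cry1 window at 60 bases before the start and in 1 of the Per1 windows at 166 bases before it. It occurred in 7.15% of the 32851 promoters searched. The D-box occurred at 2 positions of the Per3 window, 205 and 158 bases before the start, against 0.938% of all promoters. A forkhead match, read as GTAAACA on the printed strand, lay 95 bases before the Cry1 start and did not overlap the E-box; 3.65% of all promoters held one. The ROR element core TAGGTCA, part of the sequence that NR1D1 and NR1D2 recognise, occurred 30 bases after 1 Arntl start (2.61% of all promoters). No window of a clock gene held the CRE (1.79% of all promoters) or the palindromic SMAD element GTCTAGAC (0.213%). The short SMAD element CAGAC occurred in 6 of the 13 windows, of 5 genes, and in 49.6% of all promoters. These matches describe letters and not bound sites. No SMAD2/3 peak covered any of the 4 printed windows. FOXL2 overlapped part of the Per3 window in 1 library and none of the other printed windows, and so not the Cry1 window with its forkhead match. H3K27ac peaks overlapped the printed Per1 window in 4 libraries, that of Cry1 in 2, that of Nr1d1 in 1 and that of Per3 in 0. At Cry1 and Nr1d1 they overlapped only a part of the window.

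Values are given below in the order vehicle 1, vehicle 2, activin 1 and activin 2. Peaks were listed separately for each library, with 605, 144, 7784 and 5970 SMAD2/3 peaks, between 83834 and 97701 FOXL2 peaks and between 38995 and 41763 H3K27ac peaks. The read depth behind the lists is unknown, so the strength of a peak is given as its percentile rank by the authors' −log10 q within its own list, where 100 is the strongest peak. The fold enrichment is the authors' linear ratio for that peak, and its differences between lists were not tested. As a check of the labelled cell type, 9 of 10 gonadotrope marker genes had an H3K27ac peak within 1 kb of a start in all 4 lists, Fshb in none, and none of 5 markers of other pituitary lineages (Pomc, Tbx19, Prl, Pou1f1 and Tshb) had one in any list; no start was read for Gh.

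Activin was followed by SMAD2/3 peaks at 2 clock genes, Cry1 and Nr1d1. The numbers of clock gene SMAD2/3 peaks were 0, 0, 2 and 2, so the treatments did not overlap. The difference in means was 2 peaks per library, and the exact permutation p, two-sided and from 6 labellings, was 0.33, the smallest that 2 against 2 libraries allow. With all lists cut to the 144 strongest peaks, the length of the vehicle 2 list, no clock gene SMAD2/3 peak was left in any list. This outcome was fixed, as these peaks stood at place 4061 or further down their lists, and it does not test the difference. Both SMAD2/3 regions were present in both full activin lists and in neither vehicle list, and over all 8602 SMAD2/3 regions 54.0% were. None of the clock regions was in the vehicle lists only, against 0.0233% of all regions, or in all 4 lists, against 1.53%. Counted by gene, 2 of the 10 clock genes had a SMAD2/3 region in both activin lists, and 11.2% of 15377 protein-coding genes with a peak within 100 kb of a start did. For regions absent from both vehicle lists the count by gene was again 2 of 10, with 10.4% over the protein-coding genes. The other 8 genes, Per1, Per2, Per3, Cry2, Arntl, Clock, Nr1d2 and Dbp, had no SMAD2/3 peak assigned to them in any list.

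Cry1 (ENSMUSG00000020038, chr10:85131700-85185054, minus strand) encodes the repressor that blocks CLOCK and ARNTL. Its SMAD2/3 region lay at chr10:85164661-85164858, within an intron and 20.3 kb downstream of the start. The peak stood at rank 32.0 in activin 1 and 31.8 in activin 2, with fold enrichments of 5.27 and 5.52 and −log10 q of 7.43 and 7.09. It was place 5273 of 7784 peaks in activin 1 and place 4061 of 5970 in activin 2, so both replicates put it in the weaker part of the list.

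FOXL2 occupied the same intronic site of Cry1 before activin. The FOXL2 region, chr10:85164421-85164966, had ranks of 59.2, 62.6, 86.4 and 90.7 and fold enrichments of 9.06, 8.53, 18.4 and 20.8. Both activin libraries stood above both vehicle libraries on each scale. The mean rank was 27.7 points higher with activin (pooled SD 2.75, n = 2 per treatment), a change greater than that of 92.4% of the 58444 FOXL2 regions in all 4 lists and of 89.4% of the 3601 that overlap a SMAD2/3 region of both activin lists. The summits of the SMAD2/3 and FOXL2 peaks were 22 bp apart in activin 1 and 20 bp apart in activin 2. No H3K27ac peak covered this site in any list. The nearest acetylated peak, on the side away from the Cry1 start, lay 2261, 2074, 1723 and 1703 bp away.

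**Figure D1:**
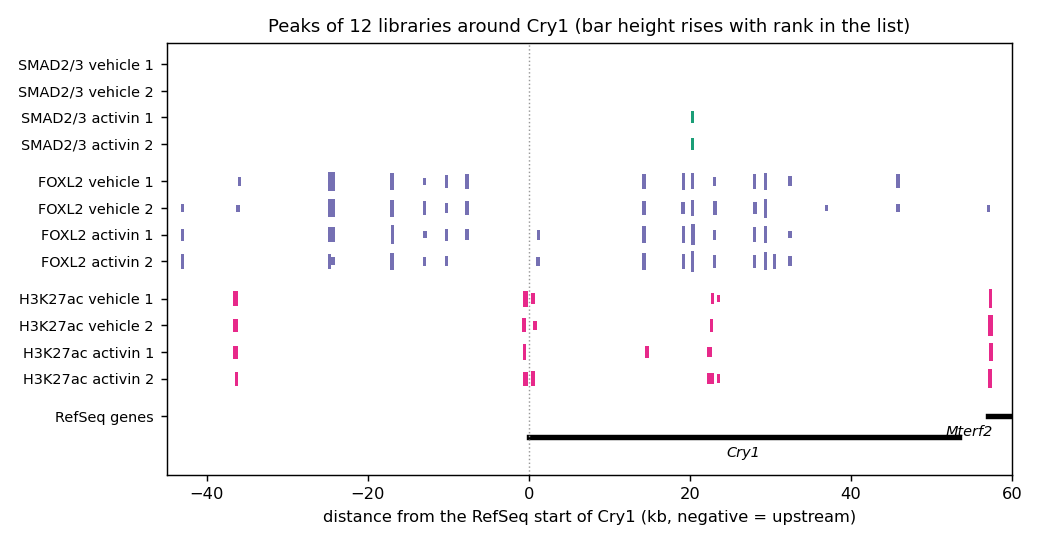
Peaks of the 12 libraries around Cry1, whichever gene they are named for, with distance from the RefSeq start of the gene in kb on the horizontal axis and 1 row per library; each bar is a peak, drawn taller for a higher percentile rank, and RefSeq genes are at the bottom. SMAD2/3 bars appear in the 2 activin rows only, 20.3 kb downstream of the start, directly above a FOXL2 bar present in all 4 FOXL2 rows.

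Nr1d1 (ENSMUSG00000020889, chr11:98767932-98775377, minus strand) encodes REV-ERBα, the repressor of Arntl. Its SMAD2/3 region lay between genes at chr11:98784628-98784856, 14.3 kb upstream of the start that the deposited table uses and 9251 bp from the 5′ end of the RefSeq gene. Msl1, on the other side, was nearer at 8652 bp, so the assignment to Nr1d1 is that of the deposited start positions and does not say which gene the site acts on. The peak stood at rank 30.3 in activin 1 and 5.03 in activin 2, with fold enrichments of 3.99 and 3.40 and −log10 q of 7.17 and 3.26. In activin 2 it was place 5664 of 5970, close to the end of the list.

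The FOXL2 region at the Nr1d1 site, chr11:98784392-98784897, had ranks of 38.3, 45.4, 85.8 and 86.3 and fold enrichments of 4.98, 4.95, 11.9 and 12.4. As at Cry1, both activin values stood above both vehicle values. The mean rank was 44.2 points higher with activin (pooled SD 3.57), more than in 98.2% of all FOXL2 regions in all 4 lists and in 96.2% of those at SMAD2/3 sites. SMAD2/3 and FOXL2 summits were 8 bp apart in activin 1 and 7 bp apart in activin 2.

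Acetylation differed in layout at this Nr1d1 site. Merged over the lists, the H3K27ac region was chr11:98782774-98786634. Vehicle 1 held 2 peaks there with a gap over the SMAD2/3 site, the nearer one 360 bp away, and vehicle 2 held 3 peaks, the nearest 449 bp away. Each activin list held 1 peak that ran across the site, 3801 bp wide in activin 1 and 3706 bp wide in activin 2. How often such a layout occurs over all H3K27ac regions was not counted. The Per1 start, with no SMAD2/3 region within 100 kb, had the reverse layout, with 1 peak in each vehicle list and 2 in each activin list. The rank of the strongest peak in the region was 90.2, 88.2, 78.1 and 68.8, lower in both activin lists (mean change -15.8 points, pooled SD 4.79). With vehicle this was a peak beyond the site as seen from Nr1d1, 638 bp wide in vehicle 1 and 625 bp in vehicle 2. With activin it was the peak across the site. The vehicle peak on the Nr1d1 side of the site had ranks of 69.2 and 67.2, which overlapped the activin ranks. The ranks are thus of different peaks and do not show a fall at the site. The vehicle peaks were narrower (1358 bp for the nearer one in vehicle 1), and the part of peak width in these ranks was not tested.

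**Figure D2:**
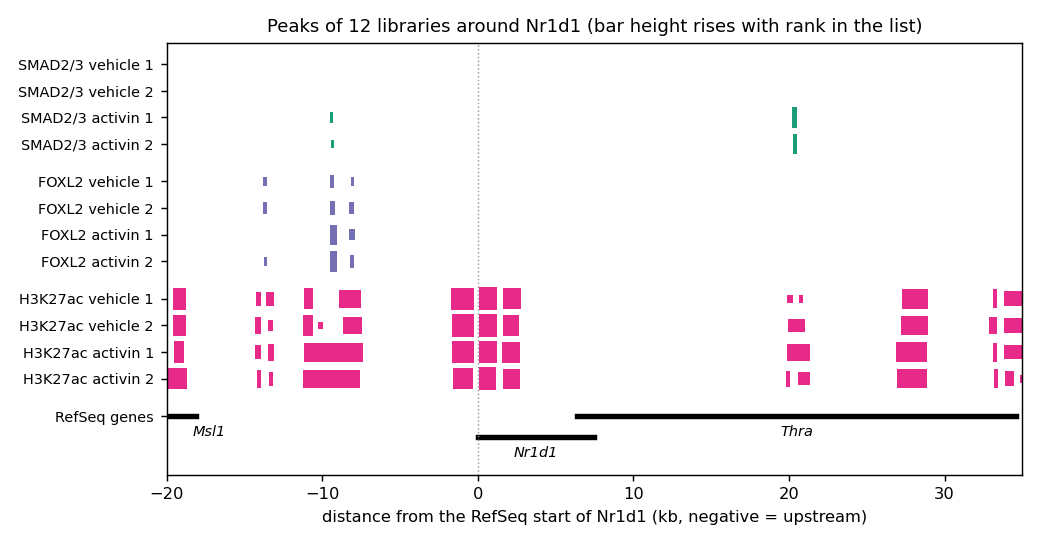
Peaks of the 12 libraries around Nr1d1, with distance from its RefSeq start in kb and 1 row per library, bar height rising with percentile rank and RefSeq genes below. The SMAD2/3 bars upstream of the gene, at negative distances, and those within Thra are in the 2 activin rows only. At the upstream site the H3K27ac rows show split peaks with vehicle and 1 peak per list with activin.

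Over all 5162 SMAD2/3 regions of both activin lists, 81.8% overlapped a FOXL2 region of both activin lists, 75.1% an H3K27ac region of both and 60.2% both kinds. The Cry1 and Nr1d1 sites both overlapped FOXL2, and Nr1d1 alone overlapped H3K27ac as well. With the H3K27ac regions of both vehicle lists in their place, neither site overlapped acetylation. No share over all SMAD2/3 regions is given for that reading, so it does not set these 2 sites apart.

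A SMAD2/3 region can lie near a clock gene and be assigned to another gene whose start is nearer. Whichever gene was named, 8 regions of both activin lists lay within 100 kb of the deposited start of 6 of the 10 clock genes, and none of the 8 had a vehicle peak. By the same reading 36.9% of 11328 protein-coding genes had such a region. Per3 had 2 of these, the nearer one 51.7 kb upstream. Arntl had 1 at 91.6 kb upstream, Clock 1 at 36.5 kb upstream, Nr1d2 1 at 99.4 kb upstream, Cry1 the 1 described above and Nr1d1 2. The further Nr1d1 region lay within the neighbouring gene Thra, which encodes a thyroid hormone receptor. This Thra region was the stronger, at ranks of 85.9 in activin 1 and 80.5 in activin 2. The region upstream of Nr1d1 had 30.3 and 5.03. No SMAD2/3 region lay within 100 kb of Per1, Per2, Cry2 or Dbp, for which the nearest were 521, 212, 102.1 and 287 kb away.

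FOXL2 was present near 9 of the 10 clock genes, and the number of its peaks there did not differ between treatments by more than the replicate spread. The lists held 21, 33, 23 and 28 clock gene FOXL2 peaks, with means of 27 ± 8.49 (SD, n = 2) for vehicle and 25.5 ± 3.54 for activin. The log2 ratio of activin to vehicle was -0.05 (pooled SD 0.36), and the exact two-sided permutation test gave p = 1. The lowest and the highest count were both in vehicle libraries, so the groups overlapped, and without vehicle 2 the log2 ratio was 0.27. Peaks classed at promoters numbered 0, 4, 0 and 3, so both replicate 1 libraries had none. Over the whole FOXL2 lists the promoter class took 3.78%, 5.04%, 3.61% and 4.40% of peaks, again lower in both replicate 1 libraries; the part of this in the clock gene counts was not tested.

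The peaks merged into 36 FOXL2 regions. Of these, 16 (44.4%) were in all 4 lists, against 46.8% of all 124781 FOXL2 regions. In only 1 library stood 7 (19.4%, against 22.7% of all), 5 of them in vehicle 2 and 2 in activin 2. By gene, 6 of the 10 had a FOXL2 region in all 4 lists, against 55.6% of protein-coding genes with a peak. One region was in both activin lists and neither vehicle list (8.95% of all regions were), and one was the reverse (3.22%). Counted by gene, the activin-only region was in 1 of 10 clock genes and in 21.6% of protein-coding genes.

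Cry1 had more FOXL2 regions than any other of the 10 genes, with 13 of the 36 and 9 of the 16 that were in all 4 lists. Its activin-only FOXL2 region lay 1.1 kb downstream of the start, at chr10:85183805-85184029, with ranks of 19.1 and 19.0 in the activin lists and fold enrichments of 3.74 and 3.87. Its vehicle-only FOXL2 region lay 36.0 kb upstream, at chr10:85220875-85221265, with ranks of 18.5 and 1.69. All 4 of these values are in the weakest part of their lists.

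In rank order, 3 of the 16 clock gene FOXL2 regions in all 4 lists stood higher in both activin lists than in both vehicle lists (18.8%, against 29.9% of all such regions). They were the Cry1 and Nr1d1 regions at the SMAD2/3 sites and a further intronic Cry1 region 14.3 kb downstream of the start, with ranks of 51.4, 45.7, 65.6 and 64.6 (change 16.5, pooled SD 2.91). The only FOXL2 region that stood lower in both activin lists (6.25%, against 28.1%) was also near Cry1, 24.5 kb upstream, with ranks of 73.7, 75.4, 50.6 and 56.7 (change -20.9, pooled SD 3.18). The other 12 overlapped between treatments. Cry1 thus had FOXL2 regions of both directions within 50 kb of its start. The median change over the 16 regions was 1.40 points, against 0.119 over all 58444 and 2.76 over those at SMAD2/3 sites. Leaving out a library loosens the rule of rank order, so over the same regions the counts can only stay or rise. They changed most without vehicle 2, when 10 regions were higher and 3 lower. Without vehicle 1, 5 were higher and 6 lower. No share over all regions is given under the looser rule.

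**Figure D3:**
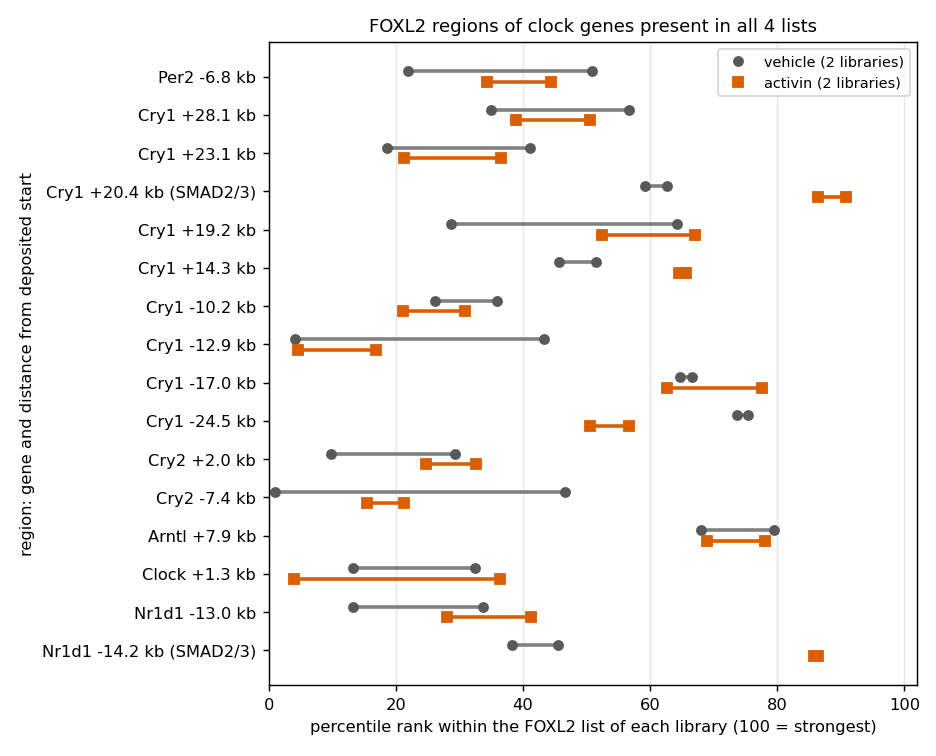
Percentile rank of each clock gene FOXL2 region in all 4 lists, with 1 row per region and 1 point per library, vehicle and activin in different colours. The activin points lie to the right of both vehicle points at the Cry1 and Nr1d1 regions with a SMAD2/3 site, where the changes are 27.7 and 44.2 points, and the points of most other rows are mixed.

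Outside Cry1 and Nr1d1, the strongest FOXL2 region in all 4 lists was in an intron of Arntl (ENSMUSG00000055116, on chromosome 7, the partner of CLOCK), 7.9 kb downstream of the deposited start. Its ranks were 68.0, 79.5, 69.0 and 78.1 and its fold enrichments 12.3, 14.6, 11.96 and 15.1, with both replicate 2 libraries above both replicate 1 libraries and no separation by treatment. The Per2 region (ENSMUSG00000055866, chromosome 1, a period repressor gene) had ranks of 21.9, 50.8, 34.4 and 44.3. It lay in an intron, 6.8 kb upstream of the deposited start but 2.7 kb downstream of the 5′ end of the RefSeq gene. The second Nr1d1 region, 13.02 kb upstream of the deposited start, had 13.3, 33.8, 28.0 and 41.2. In both genes the replicate 2 library had the higher value within each treatment. Per1 (ENSMUSG00000020893, chromosome 11) had 1 region, 5.3 kb upstream of the deposited start, seen only in vehicle 2 and activin 2 at ranks 54.3 and 48.3. Cry2 had 6 regions, of which 2 were in all 4 lists. Dbp had 4 and Nr1d2 1, of which none was in all 4 lists, and Per3 had none assigned to it.

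H3K27ac was found at all 10 clock genes, and its peak number did not differ between treatments. The lists held 28, 26, 28 and 26 clock gene H3K27ac peaks, means of 27 ± 1.41 (SD, n = 2) for both treatments, and the exact two-sided permutation test gave p = 1. Of 30 merged regions, 22 (73.3%) were in all 4 lists, against 45.9% of all 53008 H3K27ac regions. All 10 genes had such a region, against 61.2% of protein-coding genes with a peak. Only 1 region was in a single library, against 28.8% of all regions. One region was activin-only (5.84% of all regions, and 8.15% of protein-coding genes had one) and one was vehicle-only (6.79%). Both belonged to Per2.

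The activin-only H3K27ac region of Per2 lay in an intron at chr1:91446064-91446988, with ranks of 44.1 and 42.3 in the activin lists. The vehicle-only H3K27ac region of Per2, at chr1:91456221-91456567, had ranks of 18.4 and 6.84 and overlapped the Per2 FOXL2 region described above, which all 4 lists held. Neither Per2 region was at a SMAD2/3 site.

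The start that the deposited table uses lay downstream of the 5′ end of the RefSeq gene for 9 of the 10 genes, by 0.075 kb for Nr1d2 to 29.0 kb for Arntl, and at the same base for Cry1. Acetylation at starts was read within 1 kb of the RefSeq starts, whichever gene the peak was named for. These are the starts of the RefSeq promoter entries, or the gene end for Per2, and they can lie within the gene. For Arntl 1 of them was the deposited start itself, base 113207465. By this reading all 10 genes had an H3K27ac peak at a start in all 4 lists, against 43.9% of 17492 protein-coding genes. No SMAD2/3 peak stood at a start of any of them, and 0.589% of the protein-coding genes had one in both activin lists. Where a gene had several peaks at its starts, the strongest could differ between libraries, so treatments are compared below at the same peak. The exception is Per1, whose vehicle peak was split in the activin lists.

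Nr1d1 and Dbp, the Arntl repressor and the D-box output factor, had the strongest acetylation at their starts. The strongest peak at the Nr1d1 start had ranks of 99.99, 99.98, 99.5 and 99.4, and the peak over the Dbp gene (ENSMUSG00000059824, chromosome 7) 99.8, 99.7, 99.0 and 98.9. A second peak at the Dbp start, which the deposited table names for the neighbouring Car11, had 99.9, 99.9, 98.7 and 99.2. In fold enrichment the Nr1d1 peak stood at 11.0, 10.7, 9.11 and 8.70. At each of these 3 peaks both activin values were below both vehicle values, by less than 1 point of rank at the Nr1d1 start (change -0.52, pooled SD 0.09).

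Among the activators, Clock (ENSMUSG00000029238, chromosome 5) had ranks of 98.2, 97.6, 95.01 and 94.4, at a peak the deposited table names for the neighbouring Gm7467. Both activin values were below both vehicle values there. Arntl had 2 start peaks and neither was in all 4 lists. The one upstream of the deposited start had 71.1, 69.1 and 66.8 and was missing from activin 2, and the one downstream had 54.5 in vehicle 1, 35.4 in activin 1 and 52.6 in activin 2 and was missing from vehicle 2.

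Clock was also the only clock gene with FOXL2 at a start in all 4 lists, against 6.0% of the 17492 protein-coding genes. It had 2 FOXL2 sites there. The one assigned to Clock had ranks of 13.3, 32.4, 36.4 and 4.02, which overlapped between treatments. The other, which the deposited table names for RP23-386C10.5, had 1.78, 51.7, 73.9 and 65.6, with both activin values above both vehicle values and vehicle 1 far below the other libraries.

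Among the period genes, Per3 (ENSMUSG00000028957, chromosome 4) had start ranks of 97.7, 98.2, 94.3 and 96.9, Per2 of 92.6, 87.5, 85.2 and 85.1, and Per1 of 85.4, 90.0, 90.5 and 85.2. Per3 and Per2 were lower in both activin lists, and the Per1 values overlapped. At Per1 the vehicle peaks were 2764 and 2487 bp wide. Each activin list held 2 peaks in their place, and the ranks are those of the stronger, 1743 and 1610 bp wide. Of the cryptochromes, Cry1 had 57.7, 46.0, 61.4 and 46.1 at its upstream start peak, and Cry2 (ENSMUSG00000068742, chromosome 2) had 48.0, 39.0, 40.4 and 39.5 at its upstream one. Both sets overlapped between treatments. A second Cry2 start peak, in an intron, had 46.0, 28.3, 65.3 and 81.2 and is described below. Nr1d2 (ENSMUSG00000021775, chromosome 14), the second REV-ERB gene, had 84.3, 68.3, 70.5 and 79.3 at the peak nearest its start, where the treatments overlapped.

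**Figure D4:**
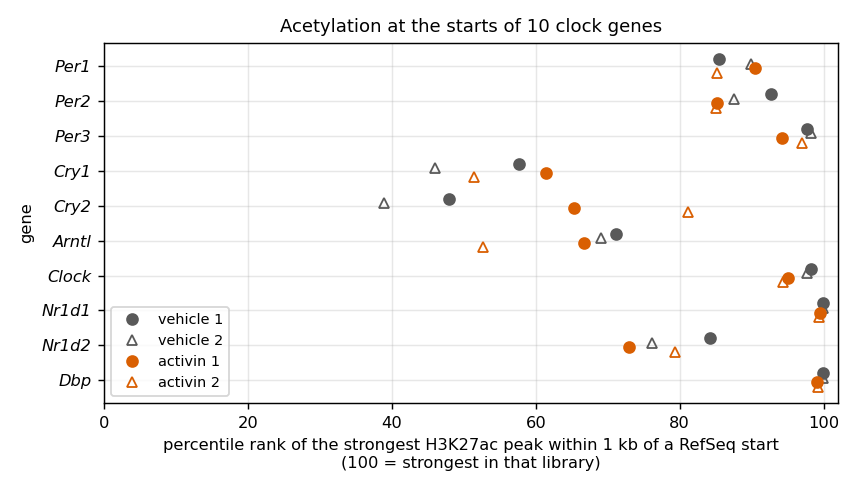
Percentile rank of the strongest H3K27ac peak within 1 kb of a RefSeq start for the 10 clock genes, 1 row per gene and 1 point per library; at Cry1, Cry2, Arntl, Nr1d2 and Dbp the strongest peak is not the same one in every library. Nr1d1, Dbp, Clock and Per3 lie above 94 in every library, and Cry1, Cry2 and Arntl extend to the lowest values.

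Over all 22 clock gene H3K27ac regions in all 4 lists, 12 stood lower in both activin lists than in both vehicle lists (54.5%), against 31.2% of all 24356 such regions. They belonged to 8 genes, all but Cry2 and Clock, and included all 4 regions of Nr1d1. In the Nr1d1 region at the SMAD2/3 site, the vehicle ranks are those of a peak beside the site. Regions of 1 gene share a locus and are not independent. The Nr1d1 region upstream of the RefSeq start went from 96.9 and 96.9 to 91.8 and 92.1, and the intronic one from 92.6 and 93.5 to 90.5 and 82.8. The Per2 region shared with Gm28381 had 58.6, 68.9, 52.0 and 37.0, and the Arntl intronic region 43.7 kb downstream had 69.0, 74.9, 55.9 and 65.9. The remaining lower regions were at Per1 (96.8, 93.7, 93.0 and 93.1, shared with Vamp2), Per2, Per3, Cry1, Nr1d2 and Dbp. The median change over the 22 regions was -2.61 points, against -0.70 over all 24356 regions and 6.51 over the 2913 at SMAD2/3 sites.

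Of the clock gene H3K27ac regions with a mean rank of at least 75, a limit chosen after the values were seen, 8 of 11 were lower in both activin lists, against 33.4% of 9217 such regions. A rank near 100 has little room above it, and the part of this in the direction was not tested. Fold enrichment gave 11 of 22 regions lower in both activin lists in place of 12.

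The H3K27ac regions that stood higher in both activin lists were 2 of 22 (9.09%, against 26.4% of all). Cry2 had the greater change, in an intron near the start at chr2:92433563-92433986, with ranks of 46.0, 28.3, 65.3 and 81.2 and fold enrichments of 3.19, 2.64, 3.77 and 4.87. The mean was 36.1 points higher with activin (pooled SD 11.9), more than in 98.1% of all H3K27ac regions in all 4 lists. The second was an intronic Nr1d2 region 1.1 kb downstream of the start, with 58.6, 57.0, 72.9 and 65.6 (change 11.4, pooled SD 3.73). Neither overlapped a SMAD2/3 or a FOXL2 region of both activin lists. Without vehicle 1 the count of higher regions was 7, and without activin 2 it was 5. The rule is looser with a library left out, and no share over all regions is given for it.

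**Figure D5:**
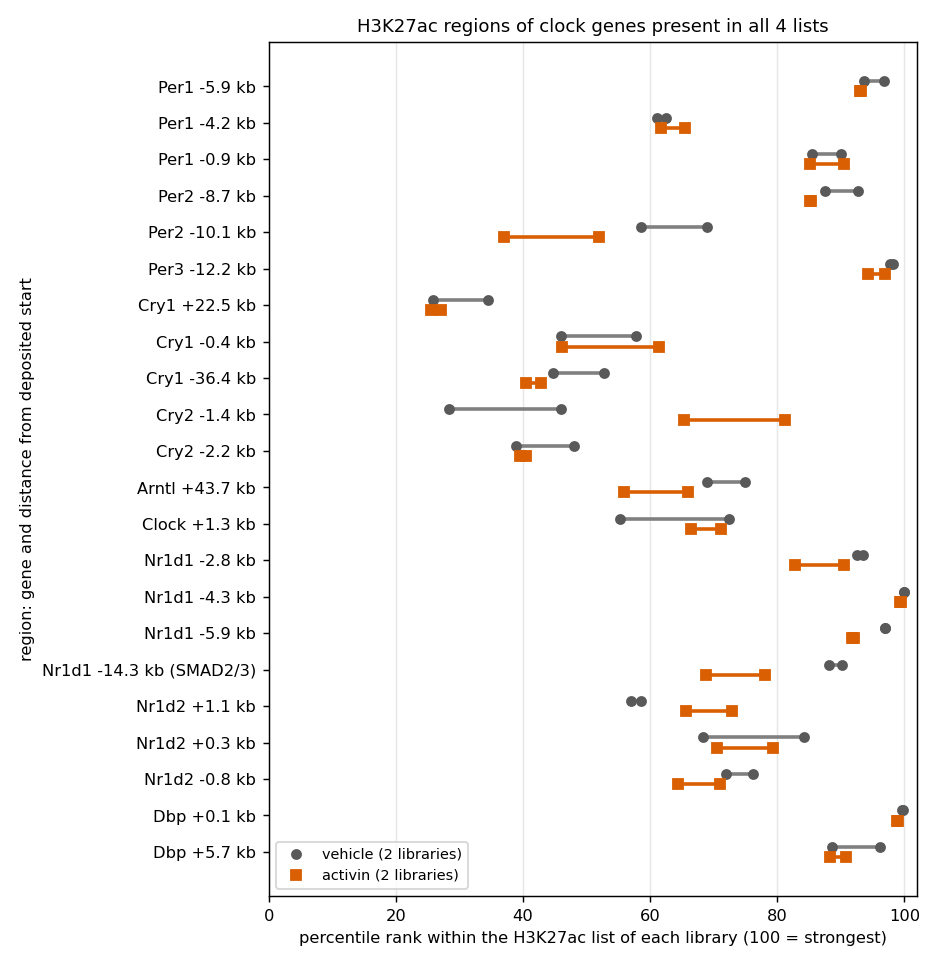
Percentile rank of each clock gene H3K27ac region in all 4 lists, 1 row per region and 1 point per library. The activin points lie left of both vehicle points in 12 of 22 rows and right of both in 2, those of Cry2 and Nr1d2.

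The wider clock machinery was read from a list of 23 further genes. Of these, 4 had a SMAD2/3 region in both activin lists, namely Npas2, Rorb, Hlf and Fbxw11, against the 11.2% of protein-coding genes given above. Hlf and Fbxw11 had one that no vehicle list held, 2 of 23 against 10.4%. Fbxw11, a ubiquitin ligase part that acts on PER proteins, had SMAD2/3 ranks of 66.6 and 55.2 with activin at a site 1.43 kb upstream of its start, with FOXL2 ranks of 90.4, 91.7, 96.2 and 97.3.

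Hlf, a D-box factor of the same family as Dbp, had 2 activin-only SMAD2/3 regions, at ranks of 59.2 and 30.0 and of 68.3 and 70.0. At the first the FOXL2 ranks were 52.3, 39.1, 88.4 and 88.7, with both activin values above both vehicle values. At the second they were 98.6, 99.3, 99.4 and 99.6, near the top of every list. Npas2, which can take the place of CLOCK, had SMAD2/3 ranks of 97.9 and 95.1 with activin and already a peak in vehicle 1 at rank 74.6. Rorb, a receptor of the family that activates Arntl, likewise had 87.0 and 75.01 with activin and 51.4 in vehicle 1. FOXL2 ranks were 87.7, 87.0, 84.4 and 89.3 at the Npas2 site, where the treatments overlapped, and 82.5, 85.6, 85.6 and 86.6 at the Rorb site, where both activin values were above both vehicle values by a small margin. All 5 of these regions overlapped a FOXL2 region of both activin lists. A start was acetylated in all 4 lists in 19 of the 23 genes, against 43.9% of protein-coding genes, and in no list in Arntl2 and Fbxl21. Within 100 kb, 15 of the 23 had a FOXL2 region in all 4 lists, against 55.6%.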

How the data were processed

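Bowtie2, MACS2, HOMER and the builds GRCm38 and mm10 are named in the submitters' processing notes, and their settings and versions are not given in the sources used here. Each of 12 libraries has a deposited peak list with the authors' fold enrichment (a linear ratio), −log10 p, −log10 q and a score, and a table of nearest starts made with annotatePeaks per the file headers. SMAD2/3 and FOXL2 lists are narrow peaks and H3K27ac lists broad peaks. Reads were single-end, 50 bp, per the labels; the depth reached is unknown, and the Protein-A control was not analysed here.

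Peaks were merged where they shared 1 bp, and ranks were taken by −log10 q within each list. Start positions come from the deposited distances, and gene ends and promoter sequences from RefSeq GRCm38.p6. Counts of peaks were compared by exact two-sided permutation over 6 labellings, as log2 ratios, and for SMAD2/3 as a difference because the vehicle counts were 0. Regions named singly were the SMAD2/3 regions in 2 libraries, FOXL2 and H3K27ac regions that overlap these or lie at starts, and treatment-only regions; the others named were chosen after their values were seen. The genes and lists were chosen with earlier results of these data known. Some genes of the wider clock list are not reported here and were left out of its counts. Counts were repeated with a stricter q, other windows, equal list lengths, another assignment, another overlap, ranks by fold, a replicate block and single libraries left out. The merging was tested on simulated lists. Python 3.11.15, numpy 2.4.6, pandas 2.3.3, scipy 1.17.1 and matplotlib 3.10.9 were used.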

Additional observations from a re-analysis of the deposited data

How the results depend on the processing

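The SMAD2/3 peak difference of 2 per library stayed at 2 without any single library and was 1.5 with −log10 q of at least 5. It was 0 within 10 kb and 8.5 with any peak within 100 kb of a start. With equal list lengths it was 0, an outcome fixed by the low places of these peaks. SMAD2/3 activin-only regions numbered 1 with −log10 q of at least 5 (the Nr1d1 peak in activin 2 misses it), 0 within 10 kb, 8 with any region within 100 kb of a start, and 0 with lists cut to the 144 peaks of the shortest; genes with a SMAD2/3 region in both activin lists then numbered 1, 0 and 6 under the first 3 of these. Clock gene SMAD2/3 sites at H3K27ac numbered 0 with vehicle H3K27ac regions, and no share over all SMAD2/3 regions is given for this. The FOXL2 log2 peak ratio turned to 0.0889 with −log10 q of at least 5 and 0.0112 within 10 kb, and ran from -0.38 to 0.27 with single libraries left out. FOXL2 vehicle-only regions numbered 0 with the stricter q, 0 within 10 kb, 9 by any region, and 1 to 6 with single libraries left out; activin-only ones 16 by any region and 1 to 4. H3K27ac activin-only regions numbered 0 with the stricter q, 6 by any region, and 1 to 2 with single libraries left out. Vehicle-only ones numbered 0, 3, and 1 to 3. No share over all regions is given for these counts of treatment-only regions, so they do not set clock genes apart. By the main rule 8.95% of all FOXL2 regions were activin-only and 3.22% vehicle-only. For H3K27ac the shares were 5.84% and 6.79%. Ranked by fold, the FOXL2 change at the Nr1d1 site was 48.1 points.

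The labels do not say what same-numbered libraries share. Deviations of same-numbered libraries correlated at 0.132 for FOXL2 and -0.03 for H3K27ac regions. FOXL2 peaks of the promoter class were nevertheless fewer in both replicate 1 libraries, as given above. With the replicate block, FOXL2 regions numbered 6 higher and 2 lower, and H3K27ac regions 4 higher and 14 lower; the block left the peak ratios as they were. With single libraries left out, FOXL2 counts ran from 5 to 10 higher and from 1 to 6 lower. H3K27ac counts ran from 2 to 7 higher and from 13 to 16 lower. The block, which compares same-numbered libraries only, and the omission of a library both loosen the main rule. Over the same regions these counts can therefore only stay or rise, as can counts of treatment-only regions with a library left out. No share over all regions is given under these rules, so the counts add no support. With 2 libraries per treatment and unknown depth, a peak missing from a list does not show that binding is absent, and a rank can shift as other peaks of the list do. Intervals from counting cannot be given without read numbers.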
